A study of Mus musculus with 14 samples.

Results

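The comparison described here sets healthy lung against healthy gastrocnemius, the large calf muscle, of male C57BL/6 mice (C57BL/6NCrlOri) aged 6 to 8 weeks. It comprises the 3 lung and 3 gastrocnemius libraries titled CON, read as control, which are 6 of the 14 RNA-seq libraries of the series and were chosen by those titles. The other 8 libraries, titled TB and read as tumour-bearing (5 of lung, 3 of gastrocnemius), come from mice given cells of the KrasIKKaL line through the trachea. They enter no result below other than 1 alternative fit with all 14 libraries and a closing look at genes seen in a single tissue. The labels do not say what the control mice were given, whether each library is a different animal, or whether lung and muscle libraries were prepared together. Differences between the tissues and between any batches of preparation therefore cannot be told apart, and p-values measure the spread between these libraries only, which may be technical.

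The gastrocnemius of a mouse is built mostly of fast-twitch fibres, long multinucleate cells packed with contractile filaments and fed by glycolysis, phosphocreatine and mitochondria. The lung is a mosaic of alveolar type 1 cells that form the gas-exchange surface, type 2 cells that secrete surfactant, airway club and ciliated cells, a dense capillary bed, fibroblasts and resident immune cells. Many muscle proteins are members of small gene families whose other members serve cells in general, so that the same step can be carried out by a different gene in each tissue. In bulk tissue, fewer cells of a type and less RNA per cell cannot be told apart.

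Total expected counts were 55987871, 54605155 and 50157111 in lung and 36546828, 33379733 and 32476194 in gastrocnemius. A count of 0 allows up to 3 counts, or 0.0536 to 0.0924 CPM (counts scaled by the library's total) in these libraries, and such limits cover counting error only. Lung CON 1 stood apart in genes of heart muscle: Nppa, the atrial natriuretic peptide, had 2.97 TPM (a level per transcript length, scaled to the same sum in every library) there and 117 and 108 TPM in lung CON 2 and 3. The gastrocnemius libraries differed more among themselves than the lung libraries. Myh7, the slow myosin heavy chain, had 400, 228 and 26.1 TPM in muscle CON 1, 2 and 3. Transcripts of the mitochondrial genome took 16.2%, 26.7% and 34.1% of counts in the same order of libraries, against 4.04% ± 0.333 in lung (SD, n = 3). The part of these differences in the results below was not tested; the overall counts, the concentration, the single-tissue sets, the pairs and the named genes were recomputed without each library in turn, the counts within lists and families were not.

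Of 18053 genes that passed the filter on low counts, 14678 (81.3%) differed between the tissues in edgeR's quasi-likelihood test (adjusted p under 0.05). On counts scaled by TMM, a method that aligns the bulk of the genes between libraries, 8097 genes (44.9%) were higher in lung and 6581 (36.5%) in gastrocnemius. The 3 libraries of a tissue did not overlap those of the other for 8461 genes (46.9%) with lung above and 6679 (37.0%) with gastrocnemius above. At least 2-fold differences were found for 6311 genes higher in lung and 4936 (27.3%) higher in gastrocnemius. The differences were often very large: 3630 called genes differed at least 10-fold and 1205 at least 100-fold, 789 of these higher in lung and 416 higher in gastrocnemius. The median log2 difference, lung minus gastrocnemius, was 0.25 over all tested genes.

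The split of directions depended on the scale. On log2(TPM + 1), on which each library sums to the same total, the median log2 difference was 1.66, and limma called 15092 genes higher in lung and 1287 higher in gastrocnemius. Of the 6581 genes called higher in gastrocnemius on the TMM scale, 1287 were called higher there on both scales and 3669 were called higher in lung on log2(TPM + 1). Of the 8097 higher in lung, 8093 were called so on both. For genes at 1 TPM or more in both tissues (8880 genes), the median log2 ratio of mean TPM was 2.16. TMM factors were 1.94, 1.91 and 1.94 for lung and 0.650, 0.508 and 0.421 for gastrocnemius. Neither scale measures transcripts per cell. Log2 differences below are lung minus gastrocnemius on the TMM scale unless stated, and genes whose direction turned on log2(TPM + 1) are named as such.

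The muscle transcriptome was concentrated in far fewer genes than that of lung. It took 161, 133 and 132 genes to reach 50% of summed TPM in the 3 lung libraries and 17, 11 and 8 in the 3 gastrocnemius libraries, or 142 ± 16.5 against 12 ± 4.58 (SD, n = 3). The 10 most abundant genes held 25.3%, 26.8% and 27.0% of TPM in lung and 37.2%, 47.9% and 56.8% in gastrocnemius. No lung library overlapped a gastrocnemius library in either measure (exact two-sided permutation test, p = 0.1, the smallest that 3 against 3 allows). To reach 90%, lung took 4529 ± 101 genes and gastrocnemius 443 ± 283, and 14975 ± 41.0 genes reached 1 TPM in lung against 9210 ± 895 in gastrocnemius. The single most abundant gene, by contrast, held a larger share in lung, 11.3% ± 0.843, than in gastrocnemius, 8.4% ± 1.88.

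Part of the muscle share was mitochondrial RNA, which held 32.6% ± 8.36 of TPM in gastrocnemius and 9.82% ± 0.614 in lung. With mitochondrially encoded genes left out, 226, 196 and 195 genes held 50% of TPM in lung and 17, 11 and 6 in gastrocnemius. The groups again did not overlap. The leading gene then held 12.6% ± 1.01 in lung and 12.1% ± 4.15 in gastrocnemius (exact two-sided permutation test, p = 0.8). The larger share of the leading gene in lung was thus not found with these genes left out. Only genes annotated to the mitochondrial genome were removed. In gastrocnemius the leader was then a predicted or unnamed gene, since Mylpf, the highest named gene, ranked 4 or 5. Among named nuclear genes the leader stayed larger in lung, with a mean of 113253 TPM for Scgb1a1 against 29496 TPM for Mylpf in gastrocnemius. Whether such genes share reads with mitochondrial genes was not tested. By share of counts instead of TPM, which weights long transcripts more, 868, 831 and 862 genes held 50% in lung and 33, 19 and 12 in gastrocnemius.

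**Figure D1:**
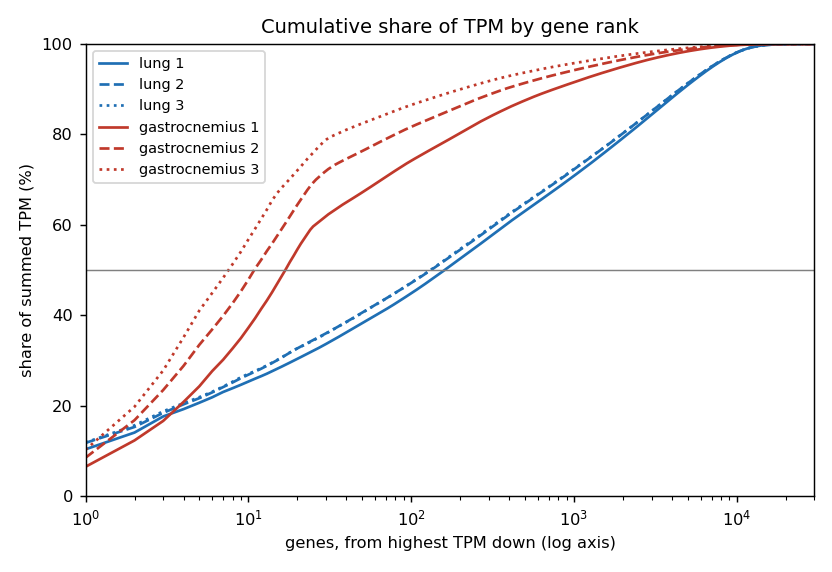
Share of summed TPM (vertical axis, percent) held by the genes of each library, taken from the most abundant downward (horizontal axis, log scale); lines are the 3 lung and 3 gastrocnemius libraries and the grey line marks 50%. The gastrocnemius lines cross 50% at 17, 11 and 8 genes and the lung lines at 161, 133 and 132.

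In lung the leading nuclear gene was Scgb1a1, the secretoglobin that club cells release into the airway lining fluid, with 103528, 117741 and 118491 TPM against at most 0.22 TPM in any gastrocnemius library. Sftpc, surfactant protein C of type 2 cells, followed with 37048, 31235 and 31026 TPM and no count in gastrocnemius. The next member of the list, Hba-a2, averaged 9433 TPM, well below this pair. The other 8 of the lung top 10 were a mixture of cell types: the globins Hba-a2, Hbb-bs and Hba-a1 of red cells, Lyz2, lysozyme of myeloid and type 2 cells (6044 ± 232 TPM), Cbr2, a carbonyl reductase of club cells (4113 ± 60.1), and the widely expressed Tmsb4x, Rps27 and Eef1a1. Rps27, a ribosomal protein gene, was the only 1 of the 10 higher in gastrocnemius on the TMM scale (log2 difference -1.19), and its direction turned on log2(TPM + 1).

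The top 10 of gastrocnemius, all of them higher there than in lung, was led by Mylpf, the fast regulatory myosin light chain, with 33703, 27805 and 26982 TPM against 3.38 ± 0.388 in lung, a log2 difference of -15.44 ± 0.34 (SE, adjusted p = 3.20e-08). Contractile genes made up most of the rest: Myl1, Acta1 (skeletal actin), the fast troponins Tnnc2, Tnnt3 and Tnni2, and Tpm1 (tropomyosin). Ckm, muscle creatine kinase, which recharges ATP from phosphocreatine, had 12115 ± 3684 TPM, and Pvalb, the calcium buffer parvalbumin, 11341 ± 4556. Acta1 varied widely, with 22864, 16567 and 9475 TPM, yet its lowest gastrocnemius value was far above the 0.35, 0.27 and 0.42 TPM of lung. Gapdh, the glycolytic enzyme, was steady in TPM, at 21151, 19662 and 20365. On TMM-scaled library sizes it was not, at 23159, 29544 and 38132 CPM in muscle CON 1, 2 and 3. Mitochondrially encoded genes were left out of these lists and predicted genes were not named. Between the top 100 lists of the tissues, 30 genes were shared, of which 21 encode ribosomal proteins, 5 were predicted genes, and Eif1, Fth1 and Tpt1 were among the other 4.

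Genes seen in a single tissue were counted without a test, as those at 1 TPM or more in all 3 libraries of a tissue and at no more than 3 counts in every library of the other. By that rule 953 genes were listed in lung only, 6.60% of the 14442 at 1 TPM in each lung library, and 90 in gastrocnemius only, 1.11% of 8095. The lung-only genes held 16.9% ± 0.562 of lung TPM, and the gastrocnemius-only genes 1.61% ± 0.666 of gastrocnemius TPM. Lung had 674 protein-coding genes in its set, 61 receptor or immunoglobulin segments, 145 other RNAs and 58 pseudogenes. Gastrocnemius had 37 protein-coding genes and 42 other RNAs. The lung libraries were the deeper ones, which makes 3 counts a stricter limit there. With the same limit in CPM for both tissues (3 counts in the smallest library) the sets held 953 and 117 genes. On the TMM scale library sizes differed more, at 97224193 to 108751096 in lung and 13668925 to 23729366 in gastrocnemius. There 3 counts are a still looser limit for gastrocnemius, and no shared limit on that scale was applied. With 0 counts demanded in the other tissue the sets shrank to 367 and 37 genes, and with at least 10 TPM to 182 and 26.

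Secreted and surface proteins of the distal lung led the lung-only set. After Scgb1a1 and Sftpc came the surfactant proteins Sftpb (3421 ± 96.5 TPM), Sftpa1 (2983 ± 98.8) and Sftpd (877 ± 50.7), the secretoglobin Scgb3a2 (1637 ± 131), the lung chemokine Cxcl15, Wfdc2 and the ciliated-cell gene Sec14l3. Against a floor of 3 counts per gastrocnemius library, Sftpc was at least 44204-fold and Sftpa1 at least 9035-fold higher in lung. Such fold bounds, here and below, are on TMM-scaled counts and are no bounds on another scale. Chil3, a chitinase-like protein of alveolar macrophages, was the uneven member, with 289 TPM in lung CON 1 and 1106 and 1156 TPM in lung CON 2 and 3. Chosen after its values were seen, Myl7, the atrial myosin light chain, was listed in lung only with 128, 414 and 433 TPM and no count in gastrocnemius, low in the same library.

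Some lung-only genes lay side by side. Of 674 protein-coding members, 114 (16.9%) directly adjoined another member along the chromosome in the GENCODE M21 order of protein-coding genes, a set that makes up 3.08% of those genes; each gene has a neighbour on either side, and no test was made. The longest runs were Mat1a, Sftpa1, Mbl1 and Sftpd, which holds the collectin genes, and Sirpb1a, Sirpb1b, Sirpb1c and Gm5150, of the signal-regulatory family. Genes in such families have similar sequences, and how reads were split among near-identical copies is uncertain. In gastrocnemius 4 of 37 members (10.8%) had a neighbour in the set, which makes up 0.169% of those genes.

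The gastrocnemius-only set was smaller, and only 4 of its genes reached 100 TPM in every library: Pvalb, the fast myosin Myh4, the slow light chain Myl2, and Cacng1, a subunit of the calcium channel of the fibre membrane. Myh4, the heavy chain of the fastest fibres, had 2400, 1701 and 1210 TPM and no count in lung. On TMM-scaled counts it was at least 950744-fold higher in gastrocnemius, against the floor of 3 counts per lung library. Then came Myot of the Z-disc, Mybpc1, Myh2, Ppp1r27, the antisense transcript Myhas and Cacng6. In 9 of these 10 genes, Myhas being the exception, muscle CON 1 was the highest library and muscle CON 3 the lowest; Mybpc1, a slow myosin-binding protein, had 301 TPM in the former and 46.8 in the latter. Most abundant fibre genes were not in the set, since traces of them passed 3 counts in the deeper lung libraries: Acta1 had 52 counts in the lung libraries together.

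Upstream sequence is shown for 5 genes that stand for the 2 extremes and the middle: Acta1, Mylpf and Ckm for muscle, Sftpa1 for lung, and Ubb, a polyubiquitin gene, for genes near equality. Each is the 250 bases that precede the annotated start, 5′ to 3′ on the gene's strand, from RefSeq's table for GRCm38.p6. Capitals mark matches on either strand to CAGCTG (an E-box of the kind that myogenic factors bind), to the MEF2 box, to the CArG box of serum response factor, or to TATAAA in the muscle genes; matches to TATAAA or TGTTTAC (a forkhead motif) in Sftpa1; and every CG pair in Ubb. The windows lie at chr8:123894776-123895025 (minus strand) for Acta1, chr7:127211358-127211607 (plus) for Mylpf, chr7:19410844-19411093 (plus) for Ckm, chr14:41131538-41131787 (plus) for Sftpa1 and chr11:62550921-62551170 (plus) for Ubb.
Acta1: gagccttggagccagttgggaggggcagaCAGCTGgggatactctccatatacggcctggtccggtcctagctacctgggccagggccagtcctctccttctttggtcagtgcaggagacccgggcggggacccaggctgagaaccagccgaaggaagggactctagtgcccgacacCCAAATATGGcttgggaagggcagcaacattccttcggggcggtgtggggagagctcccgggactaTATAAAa
Mylpf: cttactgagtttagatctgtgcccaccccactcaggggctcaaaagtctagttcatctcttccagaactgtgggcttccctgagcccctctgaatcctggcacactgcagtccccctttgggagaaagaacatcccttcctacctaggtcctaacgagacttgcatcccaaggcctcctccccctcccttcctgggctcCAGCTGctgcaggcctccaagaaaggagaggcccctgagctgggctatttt
Ckm: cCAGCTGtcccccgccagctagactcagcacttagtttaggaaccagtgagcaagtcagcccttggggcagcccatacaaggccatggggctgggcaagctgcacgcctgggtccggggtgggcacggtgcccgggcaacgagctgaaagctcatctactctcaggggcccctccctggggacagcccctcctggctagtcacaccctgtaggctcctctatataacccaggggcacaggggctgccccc
Sftpa1: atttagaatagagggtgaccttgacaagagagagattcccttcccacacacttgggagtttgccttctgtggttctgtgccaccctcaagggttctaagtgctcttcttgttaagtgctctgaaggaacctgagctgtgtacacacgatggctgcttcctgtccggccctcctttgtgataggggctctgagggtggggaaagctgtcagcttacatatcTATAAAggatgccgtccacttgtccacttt
Ubb: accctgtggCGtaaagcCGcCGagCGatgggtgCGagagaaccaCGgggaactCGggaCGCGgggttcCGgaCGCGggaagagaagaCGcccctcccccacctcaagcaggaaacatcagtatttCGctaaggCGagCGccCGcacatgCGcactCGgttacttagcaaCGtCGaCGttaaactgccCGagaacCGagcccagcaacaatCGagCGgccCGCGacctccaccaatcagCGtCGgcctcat

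Shares of motifs were counted over 300 bases, from 250 before to 50 after the start, in RefSeq's protein-coding genes, with both strands searched. Too few members of the sets at least 100-fold higher in a tissue had a window (211 of 281 for gastrocnemius and 481 of 607 for lung), so a comparison of motifs between these sets is void and no share is given. Of 17492 windows of all such genes, 15.1% held CAGCTG, 2.92% the MEF2 box, 1.54% the CArG box, 13.3% TATAAA and 2.94% TGTTTAC. Genes equal within 2-fold, described below, had a window for 2513 of 3064. Their median was 22 CG pairs per window against 19 over the 12005 windows of all tested genes. CCGGAAG, a motif of Ets factors, was held by 23.2% of them, 16.2% of the windows of tested genes and 11.9% of all windows. Windows covered 79.6% of the 15079 tested genes, 82.0% of the equal genes and 79.2% of the lung set above. Missing windows limit this comparison too, and no difference is read from it. A match is a run of letters and was not tested as a site.

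Markers of cell types followed the tissue labels. All 12 tested markers of type 2 cells, 12 of type 1 cells, 10 of club cells, 12 of lung fibroblasts and 11 of alveolar macrophages were higher in lung, where 44.9% of all tested genes were. The summed TPM of the type 2 markers was 41432 to 47864 in lung and 4.65 to 7.38 in gastrocnemius, where 5 of them had no count. Ager, the receptor that marks type 1 cells, had 2602, 2093 and 2064 TPM in lung and 0.19, 0.14 and 0.11 in gastrocnemius. Of other lists, 11 of 12 ciliated-cell, 5 of 6 mesothelial, 11 of 12 lung capillary, 7 of 7 neutrophil, 7 of 8 B-cell and 11 of 14 general endothelial markers were higher in lung, and none of their members was called higher in gastrocnemius. Pecam1, the endothelial adhesion molecule, had 365, 326 and 321 TPM against 8.45, 6.92 and 6.49, a log2 difference of 2.78 ± 0.16. The median log2 difference of the endothelial list was 2.05, against 0.25 for all tested genes. With members that had no count in a tissue set to the floor, the medians were 11.55 for type 2, 9.07 for club, 6.52 for type 1 and 6.17 for ciliated cells.

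Macrophage genes divided. Lyz2 and 7 others of the 12 were higher in lung, while 4, among them C1qa, C1qb and C1qc, the complement chains made by tissue macrophages, were higher in gastrocnemius on the TMM scale and higher in lung on log2(TPM + 1). C1qa had 67.7, 68.5 and 63.5 TPM in lung and 19.8, 17.6 and 13.9 in gastrocnemius, a TMM log2 difference of -0.86 ± 0.13 (adjusted p = 0.000388). Of the T and NK cell markers 11 of 12 were higher in lung, and Cd3e, the remaining 1, was higher in gastrocnemius on the TMM scale (log2 difference -0.70), lost that call without lung CON 1 (-0.49, adjusted p = 0.0683), muscle CON 1 (-0.56, 0.114) or muscle CON 3 (-0.62, 0.0634), and was higher in lung on log2(TPM + 1). Of 8 dendritic-cell markers 7 were higher in lung. All 8 erythroid genes were higher in lung, where their summed TPM was 22198 ± 3126 against 860 ± 72.6.

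Fibre genes were the mirror image. All 16 fast-fibre genes, 21 of the sarcomere and Z-disc and 18 of excitation-contraction coupling were higher in gastrocnemius, where 36.5% of all tested genes were. On log2(TPM + 1), 16, 20 and 16 of them were called so, and 1 sarcomere gene was called higher in lung. Summed over the fast-fibre list, TPM was 94790 to 157702 in gastrocnemius and at most 58.6 in lung. Among the slow-fibre genes 13 of 14 were higher in gastrocnemius, and Pln, phospholamban, which restrains the calcium pump of heart and slow fibres, was higher in lung (6.95, 16 and 15.2 TPM against 0.67, 0.32 and 0.49). Atp2a1, the calcium pump of fast fibres, had 7314, 4373 and 3174 TPM against at most 0.49 in lung. All 8 tendon genes were higher in gastrocnemius on the TMM scale, and on log2(TPM + 1) 5 were and 2 were higher in lung; Fmod, fibromodulin, had 20, 24 and 44.2 TPM there and 5.32, 4.23 and 3.96 in lung. In that list muscle CON 3, with the lowest fibre genes, was the highest library for Fmod and Thbs4.

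Several lists named for muscle cells held genes that were higher in lung. Of all tested genes, 44.9% were higher in lung and 36.5% in gastrocnemius. On log2(TPM + 1) these shares were 83.6% and 7.13%. Of 12 satellite-cell markers, 7 were higher in gastrocnemius (5 on log2(TPM + 1)) and 5 in lung: Vcam1, Cxcr4, Fgfr4, Notch3 and Heyl. Notch3 (log2 difference 0.60) lost its call without lung CON 2 (0.54), lung CON 3 (0.55) or muscle CON 2 (0.51). Vcam1, an adhesion molecule, had 42.9, 39.4 and 41.3 TPM in lung against at most 0.61. Lrp4, the agrin co-receptor of the neuromuscular junction, was higher in lung too (log2 difference 2.93 ± 0.19), as was the transcription factor Etv5, which the list of type 2 cells also holds, whereas 8 of the 11 junction genes were higher in gastrocnemius (7 on log2(TPM + 1)). Of 10 Schwann-cell genes, 6 were higher in gastrocnemius on the TMM scale, against 3 there and 5 in lung on log2(TPM + 1). Prx, periaxin, which the lung capillary list also holds, was higher in lung on both. Of 12 cardiomyocyte markers 9 were higher in lung, with a summed TPM of 476 to 1500 there, lowest in lung CON 1. The source of these transcripts in the lung samples was not tested. Actc1, cardiac actin, was higher in gastrocnemius on the TMM scale (log2 difference -1.39 ± 0.35) and in lung on log2(TPM + 1). Sln and Hcn4, the other members called against their list, had the opposite sign on log2(TPM + 1) too, and Sln (-1.63) lost its call without single libraries (-1.22 without lung CON 1, -1.86 without lung CON 3, -1.20 without muscle CON 1 and -1.46 without muscle CON 2).

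Of 10 markers of fibro-adipogenic progenitors, 4 were higher in lung and 5 in gastrocnemius (6 and 3 on log2(TPM + 1)), close to the 44.9% and 36.5% of all tested genes. Of 12 smooth muscle and pericyte genes 7 were higher in lung and 2, Des and Rgs5, in gastrocnemius. Adipocyte genes were higher in gastrocnemius in 8 of 10 cases on the TMM scale and in 2 on log2(TPM + 1), where 5 were higher in lung. Of 6 lymphatic genes 4 were higher in lung and 1 in gastrocnemius, and all 6 were higher in lung on log2(TPM + 1). Of the embryonic and perinatal myosins, Myh3 and Myh8 were higher in gastrocnemius and Myl4, which the heart atrium also uses, in lung (log2 difference 1.21 and no call without muscle CON 2).

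**Figure D2:**
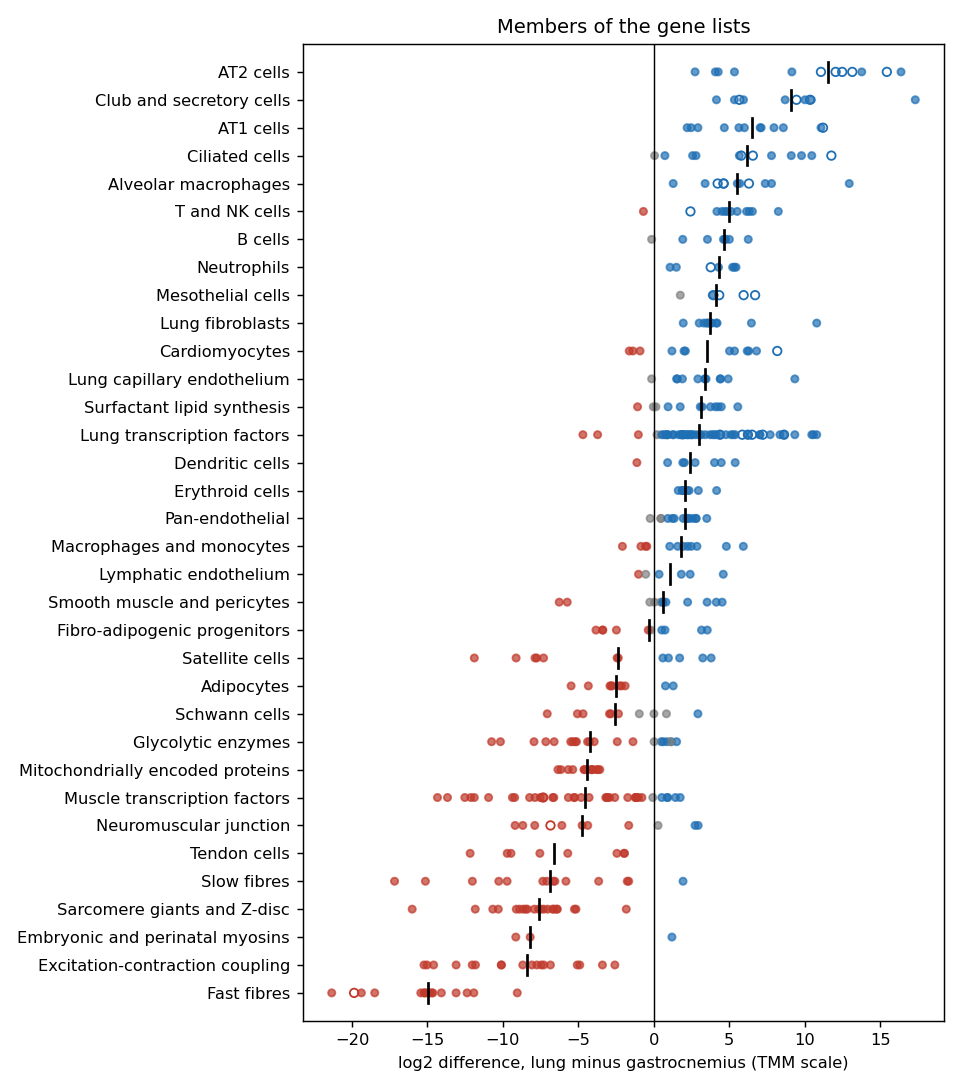
Log2 difference, lung minus gastrocnemius on the TMM scale, of each tested member of each list (rows, ordered by median, black bar); blue is called higher in lung, red higher in gastrocnemius and grey not called, and open circles are genes with no count in a tissue, drawn at the bound from 3 counts. Fast-fibre genes lie farthest to the left (median -14.96) and type 2 cell genes farthest to the right (11.55).

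Of 21 glycolytic enzymes tested, 14 were higher in gastrocnemius, 5 in lung and 2 in neither (12 and 8 were called on log2(TPM + 1)), against 36.5% and 44.9% of all tested genes higher in gastrocnemius and in lung. Their summed TPM was 40119 ± 5291 in gastrocnemius and 2516 ± 40.0 in lung. Aldoa, aldolase, had 10614, 8852 and 7021 TPM against 462, 447 and 438 (log2 difference -7.16 ± 0.24). The 5 higher in lung were Hk1, Hk3, Pfkl, Pfkp and Pgam1. All 13 mitochondrially encoded protein genes were higher in gastrocnemius, 11 of them also on log2(TPM + 1). Of 12 genes of surfactant lipid synthesis 9 were higher in lung and 1, Gpam, in gastrocnemius, which turned on log2(TPM + 1); Scd1, a fatty acid desaturase, had 577, 560 and 553 TPM against 5.43, 4.79 and 6.34.

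Because many of these enzymes and filaments exist as a muscle form and a more general form, 79 partner pairs were compared by the share that the muscle form takes of the pair's summed TPM, a measure that no scaling of the library alters. In 73 pairs the muscle form held over 50% in every gastrocnemius library and under 50% in every lung library, and in 78 the shares of the tissues did not overlap. The 10 pairs of a skeletal and a cardiac form all switched, and so did 63 of the 69 others. The stricter demand of over 90% and under 10% was met by 21 pairs. On the TMM scale the muscle form was called higher in gastrocnemius in 78 pairs. The other form was called higher in lung in 51, higher in gastrocnemius in 18 and in neither in the rest. Without the cardiac pairs these counts were 68, 44 and 15 of 69. Of all tested genes, 44.9% were higher in lung and 36.5% in gastrocnemius. Some general forms, among them Eno1 and Cox8a, turned direction on log2(TPM + 1). The pairs had been chosen as a muscle form and a general or cardiac form, so the direction of the switch is not independent of that choice.

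All 16 pairs of the thin filament and cytoskeleton switched. Acta1 took 98.9%, 98.6% and 97.3% of the sum with Actb, cytoplasmic actin, in gastrocnemius and 0.0172% ± 0.00428 in lung. Actb itself was not called different on the TMM scale (log2 difference 0.13 ± 0.24, adjusted p = 0.628), and was higher in lung without muscle CON 3 (0.47) and on log2(TPM + 1) (3.01). For calcium uptake, Atp2a1 took 0.294% ± 0.186 of its sum with Atp2a3 in lung and at least 99.9% in every gastrocnemius library. Ckm took 99.9% ± 0.0164 of the sum with Ckb, the brain-type creatine kinase, in gastrocnemius and 13.8%, 27.7% and 28.3% in lung. Ckm was lowest in the lung library that was also lowest in heart genes.

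Switches reached general cell machinery. Rpl3l, a muscle form of the ribosomal protein Rpl3, took 91.3%, 88.9% and 89.3% of the pair in gastrocnemius and 0.0638%, 0.156% and 0.135% in lung, with no overlap. Rpl3 averaged 545 TPM in lung and 33.5 in gastrocnemius, and Rpl3l 0.64 and 303. The elongation factor Eef1a2 took 69.8%, 59.8% and 43.6% of its sum with Eef1a1 in gastrocnemius and 0.161% ± 0.072 in lung. It missed the 50% rule through muscle CON 3 alone. In the mitochondrial inner membrane all 5 pairs switched: the cytochrome oxidase subunit Cox6a2 took 97.2% ± 0.692 of its sum with Cox6a1 in gastrocnemius and 13.2% ± 3.26 in lung, and the adenine nucleotide carrier Slc25a4 98.7% ± 0.194 against 39.9% ± 2.77 with Slc25a5. Among splicing regulators, Rbfox1 took 91.6% ± 3.2 of its sum with Rbfox2 in gastrocnemius and 2.67% ± 0.671 in lung.

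A few pairs did not follow. Lama2, the laminin chain of the muscle basement membrane, took 21.4%, 18.5% and 11.7% of its sum with Lama5 in gastrocnemius and 25.5%, 24.6% and 25.7% in lung, and was itself higher in lung (log2 difference 0.49). Cav3, muscle caveolin, took 61.1%, 58.0% and 35.6% against Cav1 in gastrocnemius, the lowest again in muscle CON 3. Phka1 held 58.9% ± 2.63 of its pair in lung and 95.9% ± 1.66 in gastrocnemius, so it led in both tissues. Slc16a3, a lactate exporter, was near even in lung (47.5%, 49.5% and 51.2%) and at 96.1% ± 1.19 in gastrocnemius. Nos1 took 57.2%, 45.2% and 28.0% of its sum with Nos3 in gastrocnemius. Lactate dehydrogenase switched with a smaller gap: Ldha took 78.4% ± 5.84 in gastrocnemius and 45.3% ± 0.928 in lung, and Ldhb was called higher in gastrocnemius as well on the TMM scale (log2 difference -2.43) with no call on log2(TPM + 1).

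**Figure D3:**
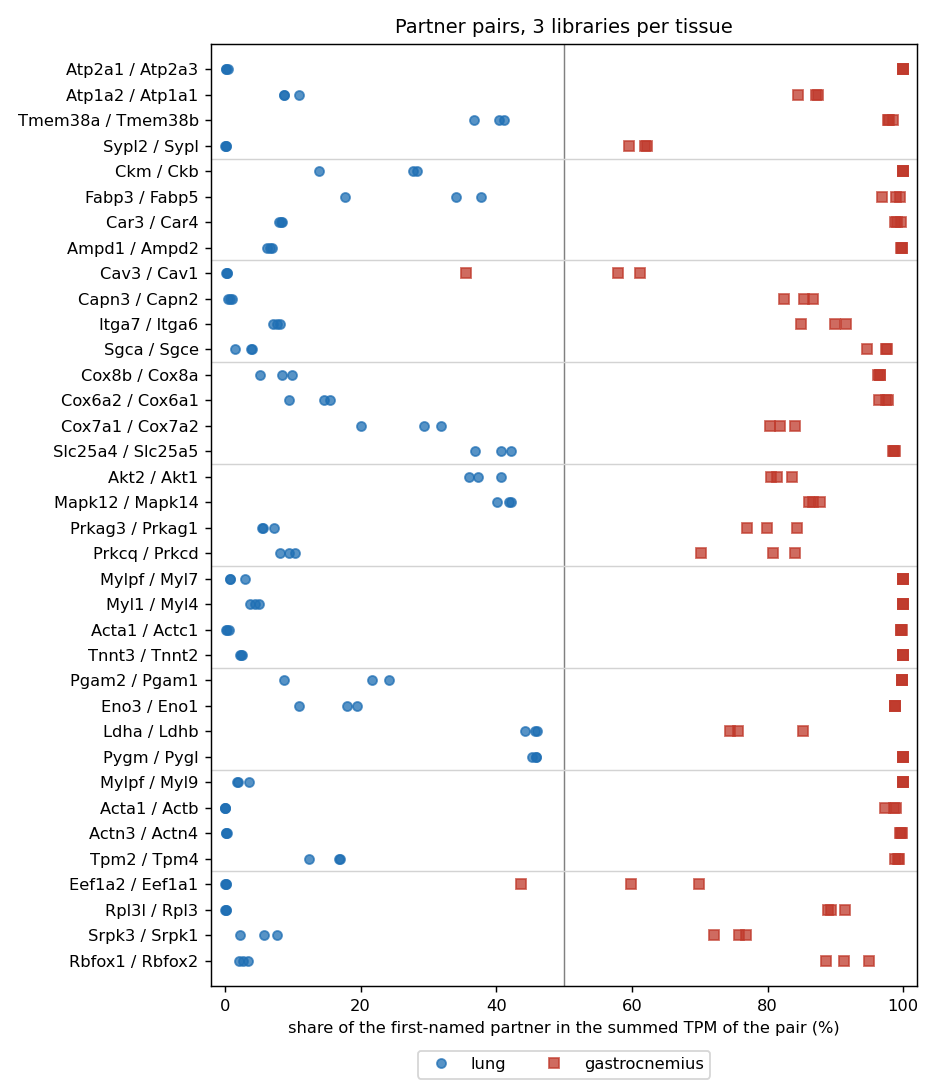
Share (percent, horizontal axis) of the first-named partner in the summed TPM of up to 4 pairs per process, those with the highest TPM among pairs at 10 TPM or more in both tissues; circles are the 3 lung and squares the 3 gastrocnemius libraries, grey lines part the processes. Only Cav3 and Eef1a2 have a gastrocnemius library below 50%, at 35.6% and 43.6%.

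Of 351 transcription factor genes in 18 families, 276 were tested, and 165 (59.8%) were higher in lung and 78 (28.3%) in gastrocnemius, against 44.9% and 36.5% of all tested genes. On log2(TPM + 1) 233 (84.4%) were higher in lung, against 83.6% of all tested genes, and 35 (12.7%) in gastrocnemius, against 7.13%, so the larger share of factors higher in lung was not found on that scale and the share higher in gastrocnemius was above that of all genes. Families differed: all 6 GATA factors, 18 of 20 Klf and Sp factors, 20 of 24 Ets factors and 5 of 5 C/EBP factors were higher in lung, while 5 of 5 myogenic bHLH factors were higher in gastrocnemius (4 on log2(TPM + 1), where 1 was higher in lung). The 4 nuclear factor I genes were higher in gastrocnemius on the TMM scale, but none was on log2(TPM + 1), where 3 were higher in lung. Of 40 nuclear receptors 12 were higher in lung, 15 in gastrocnemius and 13 in neither, against 32 and 5 on log2(TPM + 1). In lists drawn up by tissue, 51 of 56 lung factors were higher in lung and 32 of 38 muscle factors in gastrocnemius (21 on log2(TPM + 1), where 13 were higher in lung).

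Immediate early genes, which switch on quickly after a stimulus, led the factors higher in lung. Jun had 974, 711 and 726 TPM in lung and 10.6, 6.42 and 3.75 in gastrocnemius (log2 difference 4.14 ± 0.20, adjusted p = 5.31e-07). Fos had 954, 501 and 472 TPM against 1.91, 1.08 and 0.22, and was highest in lung CON 1. Jund, Junb and Atf3 followed, then Klf6, Cebpb and Gata2, an endothelial and haematopoietic factor with 153, 156 and 146 TPM against 1.22, 1.14 and 1.32. Nkx2-1, the regulator of lung epithelial identity, had 93.5, 78.6 and 77.6 TPM in lung and no count in gastrocnemius, at least 393-fold higher, and Foxa1 and Foxa2 had 22.2 ± 0.664 and 21.9 ± 3.52 TPM with no count in gastrocnemius. These 3 were named after their values were seen.

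In gastrocnemius the named factors were Mef2c, Maf, Nfic, Myf6, Nfix, Esrra and Hoxc10. Mef2c, which works with the myogenic factors on contractile genes, had 81.4, 70.7 and 65.6 TPM against 8.73, 8.26 and 7.0 in lung (log2 difference -5.67 ± 0.13). Myf6, the myogenic factor of mature fibres, had 43.9, 22.8 and 10.9 TPM and at most 0.02 in lung. The other myogenic factors were far lower, Myod1 at 7.49 ± 3.61, Myog at 1.4 ± 0.66 and Myf5 at 0.387 ± 0.1 TPM in gastrocnemius. Nfic and Nfix turned direction on log2(TPM + 1), and Esrra, a regulator of oxidative metabolism, kept its direction there without a call.

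Hox genes, which encode position along the body axis, parted by number and cluster, a grouping made after their values were seen. Of 28 tested, 18 were higher in gastrocnemius and 9 in lung (15 and 13 on log2(TPM + 1)). Over all tested genes, 36.5% were higher in gastrocnemius and 44.9% in lung (7.13% and 83.6% on log2(TPM + 1)). All 11 with paralogue numbers 8 to 13 were higher in gastrocnemius on both scales, and so were all 11 of the Hoxc and Hoxd clusters. Of the 11 Hoxa and Hoxb genes numbered 1 to 6, 9 were higher in lung, and all 11 were on log2(TPM + 1). Hoxc10 had 26.1, 18.9 and 10.5 TPM in gastrocnemius and no count in lung, at least 2866-fold higher on TMM-scaled counts. Hoxa5 had 39.4, 32.9 and 31.8 TPM in lung against 1.43, 1.27 and 1.02 (log2 difference 2.0 ± 0.15). Hoxa4, Hoxa7 and Hoxb7 were higher in gastrocnemius on the TMM scale and in lung on log2(TPM + 1).

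**Figure D4:**
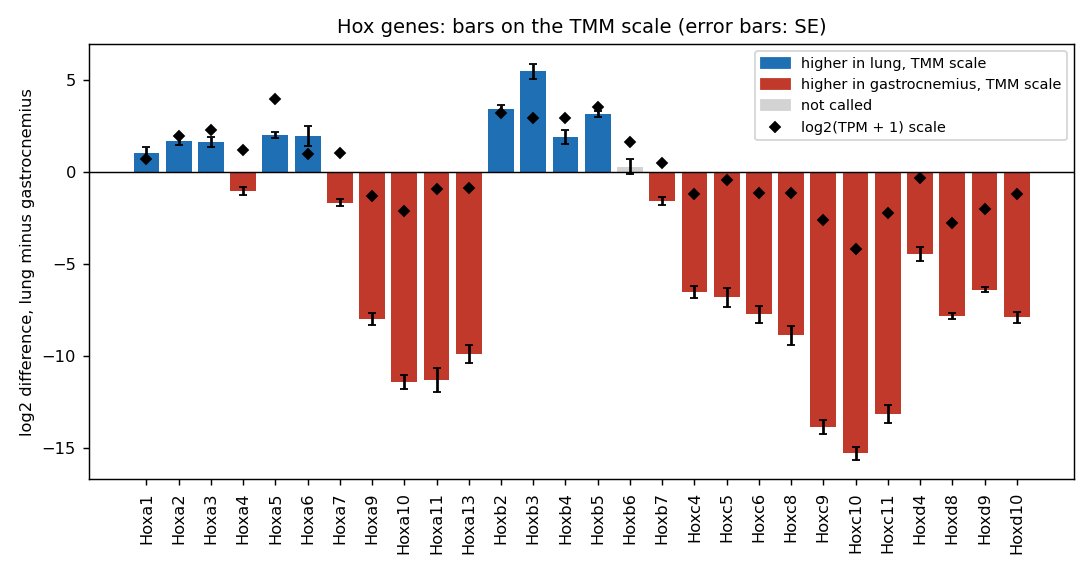
Log2 difference, lung minus gastrocnemius, of the 28 tested Hox genes by cluster and number; bars are the TMM scale with SE, coloured by call, and diamonds log2(TPM + 1). The 11 Hoxc and Hoxd genes all lie below 0 on both scales; the heights for genes with no count in lung, such as Hoxc10, depend on the fit and are no measured folds.

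Equality was tested separately, since a difference that misses the threshold is not equality. With a limit of 1.5-fold and limma-voom's estimates, none of the 18053 genes passed after adjustment; 1774 did at an unadjusted p under 0.05, and the smallest adjusted p was 0.0710. Without muscle CON 3, 479 genes passed, and on log2(TPM + 1) 1309 did, none of which had a mean of 10 TPM. With a limit of 2-fold, chosen after that 0 was seen, 3149 genes (17.4%) passed, of which 1341 were also called different by edgeR, as a small difference can be both. The scales hardly shared their equal genes: 9 were equal within 2-fold on the TMM scale and within 1.5-fold on log2(TPM + 1). The 8 most abundant of the 3149 genes equal within 2-fold on the TMM scale included Hspa8, Gsn, Hsp90ab1, Actb, Ubb, Eef2 and Ftl1. These encode chaperones, actin and its severing protein gelsolin, ubiquitin, an elongation factor and ferritin.

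Ubb had 1220, 1125 and 1070 CPM on TMM-scaled library sizes in lung and 1102, 1084 and 1018 in gastrocnemius. The libraries overlapped, and the log2 difference was 0.09 ± 0.12 (90% interval of limma-voom's estimate from -0.09 to 0.27). In TPM the same gene averaged 2227 ± 204 in lung and 308 ± 113 in gastrocnemius. Gsn had 2119, 1869 and 1901 scaled CPM in lung and 1362, 1365 and 1375 in gastrocnemius, so it was equal within 2-fold and called higher in lung (adjusted p = 0.00509). Actb varied more in gastrocnemius, at 859, 1156 and 1713 scaled CPM, than in lung, at 1341, 1421 and 1316. On log2(TPM + 1) each of those named was higher in lung.

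Most of the usual reference genes differed, as did most genes. Of 40 listed, 39 were tested: 11 were higher in lung, 22 in gastrocnemius and 6 in neither, where 44.9% and 36.5% of all tested genes were higher in lung and in gastrocnemius. Equality within 2-fold was found for 11 (28.2%), against 17.4% of all tested genes. On log2(TPM + 1) 32 were higher in lung and 4 in gastrocnemius. Nearest to 0 were Ppia (0.07 ± 0.13), Ubb (0.09), Actb (0.13) and Hprt (0.14), of which Ppia (0.22, adjusted p = 0.0449) and Actb (0.47, adjusted p = 0.0129) were called higher in lung once muscle CON 3 was left out. Farthest were Gapdh (-6.61 ± 0.28), Gpi1 (-4.39), Pgk1 (-3.96) and Cyc1 (-3.83), 3 enzymes of glycolysis and a subunit of the respiratory chain. Those 4 lay on the gastrocnemius side on log2(TPM + 1) too, where Gapdh was at -4.69 and Cyc1 had no call.

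**Figure D5:**
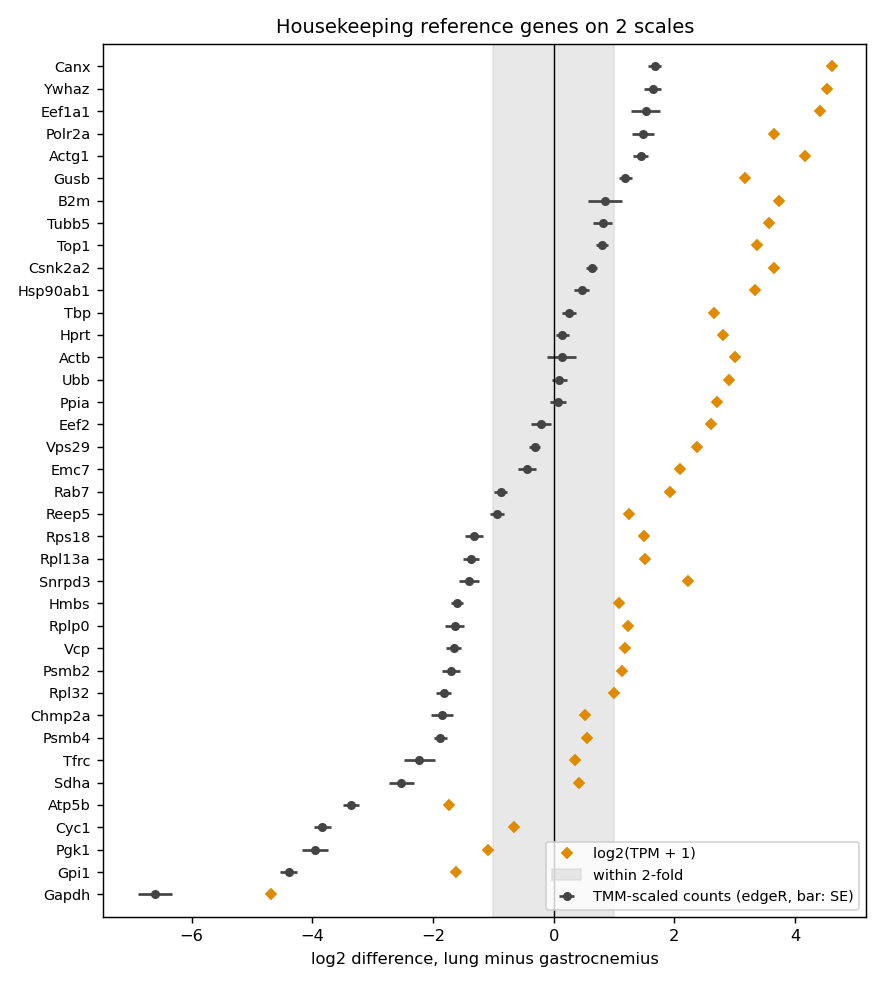
Log2 difference, lung minus gastrocnemius, of 38 of the 39 tested reference genes, ordered by the TMM scale (circles, bars are SE), with the log2(TPM + 1) scale as diamonds and the 2-fold range shaded. On the TMM scale the genes run from -6.61 for Gapdh to 1.68 for Canx, and each diamond lies to the right of its circle.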

How the data were processed

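Libraries were made with the MGIEasy RNA Directional kit, with a read length of 100, per the labels. The submitters' processing notes name Trim Galore, STAR 2.7.9a and RSEM 1.3.3; genome build, settings and strand option are not stated there. The authors deposited, for 55416 Ensembl identifiers, RSEM expected counts (estimates that share out ambiguous reads) and TPM (scaled per transcript length). Symbols matched 52083 (94.0%).

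Expected counts were rounded and tested in R 4.3.3 with edgeR 4.0.16 (TMM, filterByExpr, two-sided quasi-likelihood test) on the 6 control libraries, with Benjamini-Hochberg adjustment over 18053 genes and a threshold of 0.05; adjusted p-values in the text are from it where no tool is named. TPM gave levels and shares, and log2(TPM + 1) in limma 3.58.1 a second scale, which understates changes of low genes. Equality was tested with 2 one-sided tests on limma-voom estimates. Alternatives were DESeq2 1.42.0, other scalings and filters, all 14 libraries in 1 fit, a replicate block and each library left out. The procedure was also run on simulated counts with few changed genes, as many up as down, and the same dispersion for all genes. In these data 81.3% of genes differed, so that run cannot show how the scaling behaved here. Replicates differed beyond sampling noise (chi-square per degree of freedom 21.3 to 464). Gene types and order are from GENCODE M21.

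Members and lists (35 gene lists, 79 pairs, 351 transcription factors) were chosen with earlier results of these data known. The rule for named genes took the 10 highest by TPM per tissue and per single-tissue set, up to 4 pairs per process, up to 3 members per list and those called against it, the 8 highest factors at least 2-fold different per tissue, the 8 highest equal genes, and the 4 reference genes nearest to and farthest from 0. Some genes under this rule are not reported here, and other genes in the text are examples chosen after their values were seen. The rule set equality at 1.5-fold; since no gene passed, the 2-fold limit was used to name genes.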

Additional observations from a re-analysis of the deposited data

Results flagged for a closer look

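Libraries of tumour-bearing mice, which otherwise entered only 1 alternative fit, held signal for some genes that the control libraries showed in 1 tissue only. Of the 953 lung-only genes, 203 were above 3 counts in at least 1 of 3 tumour-bearing gastrocnemius libraries, and 750 (78.7%) were not. Chil3 had 23 to 281 counts there, with a median of 35, and the chemokine gene Ccl17 had 24 to 65, both above 3 counts in all 3 libraries. Of the 90 gastrocnemius-only genes, 26 were above 3 counts in at least 1 of 5 tumour-bearing lung libraries, among them Hoxa10 with 0 to 154 counts, above 3 in 3 libraries. No gene of either set reached 1 CPM in every tumour-bearing library of the other tissue. These genes were picked as examples after their values were seen, and no test was made.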

How the results depend on the processing

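On log2(TPM + 1), 15092 genes were higher in lung and 1287 in gastrocnemius, 11900 and 795 of them at least 2-fold, 35 family transcription factors were higher in gastrocnemius, and 1309 genes were equal within 1.5-fold. Demanding 0 counts in the other tissue left 367 lung-only and 37 gastrocnemius-only genes, and at least 10 TPM left 182 and 26. By share of counts, 854 genes in lung and 21.3 in gastrocnemius held 50%, and the top 10 held 8.91% and 36.8%. Without mitochondrially encoded genes these were 206 genes and 24.7% in lung. A limit of 2-fold gave 3149 equal genes, leaving out muscle CON 3 gave 479 within 1.5-fold, and 21 pairs switched at shares of 90% and 10%.

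With each library left out in turn, 7566 to 8729 genes were higher in lung and 6208 to 6944 in gastrocnemius, 6183 to 6794 and 4943 to 5140 at least 2-fold, with 157 to 169 and 75 to 83 family transcription factors. The sets seen in a single tissue held 995 to 1104 and 94 to 112 genes, 50% of TPM lay in 132.5 to 147 and 9.5 to 14 genes, the top 10 held 26.1% to 26.9% and 42.5% to 52.3%, equal genes numbered 0 to 479, and 73 to 75 pairs switched. Deviations of same-numbered lung and muscle libraries from their tissue means had correlations of -0.07, 0.05 and -0.15 over 10838 genes. Libraries of differing number had correlations from -0.08 to 0.14. With 3 libraries per tissue, these values cannot show whether same-numbered libraries came from the same animal. With the replicate number as a block, 8018 and 6466 genes were called, 6465 and 5045 at least 2-fold. That fit had 164 and 76 family transcription factors and 0 equal genes.

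Of 3644 values of 228 named genes under the alternatives, 3494 kept their call or lack of it, 82 lost the call and 38 gained it. Values called in neither the main nor the alternative fit count as kept, whatever their sign. The other 30 changed sign with a call in at least 1 of those fits, all 30 on log2(TPM + 1). Their log2 differences there were Rps27 1.64, Nfic 0.22, Nfix 1.16, Akt2 0.92, Myl9 2.33, Actc1 1.28, Cox8a 2.39, Eno1 1.39, Tmem38b 1.57, Sypl 1.63, Mapk14 2.19, Prkag1 1.80, Srpk1 2.17, Rbfox2 2.41, C1qa 1.91, C1qb 2.26, C1qc 2.13, Siglech 0.84, Cd3e 1.71, Ighm 2.76, Chrnb1 1.20, Chad 0.57, Sln 1.13, Hcn4 0.24, Prox1 0.53, Lpl 0.077, Cfd 0.67, Gpam 1.81, Hoxa4 1.18, Eef2 2.61; the cause was not tested.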
